A study of Homo sapiens with 16 samples.

Results

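Integrins and laminins were followed in MDA-MB-231 and MDA-MB-436, human mesenchymal triple-negative breast cancer cell lines. The members are protein-coding genes named ITGA or ITGB with a number, ITGAD, ITGAE, ITGAL, ITGAM, ITGAV and ITGAX, and LAMA, LAMB and LAMC with a number. Such genes described here number 37, 26 integrins and 11 laminins. In low serum 35 of them had at least 10 counts summed over its 8 libraries, among 16069 protein-coding genes tested, and in standard serum 33 had, among 15414. ITGA8 and LAMB4 reached this minimum in low serum alone. ITGAD and ITGAL, both integrin subunits of leukocytes, did not reach it in either condition and were not tested.

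Each cell line carried the 7TGP reporter, in which Tcf/Lef binding sites drive eGFP, and repeated sorting by eGFP had given a Wnt-negative subline (7TGP-NEG) and a Wnt-positive one (7TGP-POS). The 4 sublines were grown either in low serum (0.5% FBS), with collection on day 3, or in standard serum (10% FBS), with collection on day 6, and bulk RNA-Seq was done on 2 biological replicates of each of the 8 groups. MDA-MB-231 carries mutant CDKN2A and MDA-MB-436 carries mutant BRCA1, among other mutations. Each subline is 1 sorted population, so the replicates show the spread between cultures of that population and not between independent sorts. Library totals were 27918418 to 32667756 counts in low serum and 31827130 to 46044073 in standard serum. Per the study's methods, low serum RNA was depleted of ribosomal RNA and standard serum RNA was selected for poly(A), with different kits and sequencers, although the labels name 1 kit for all libraries. Serum, days in culture, library preparation and sequencer cannot be told apart here, so the 2 serum conditions were never tested against each other. The study's methods also give the lines different culture media, where the labels name 1 medium for all, so cell line and medium cannot be told apart in any comparison between the lines. VIM, the mesenchymal filament protein, had group means of 671.5 to 4905 CPM, counts scaled to a common library total, whereas CDH1, the epithelial cadherin, stayed at 0.07 to 0.27 CPM. Other epithelial markers were expressed. The summed deposited TPM of the 8 listed was 65.6 to 84.0 in MDA-MB-231 in low serum. In standard serum it was 133 and 143 in 7TGP-NEG and 160 and 173 in 7TGP-POS of that line. In MDA-MB-436 it was 17.4 to 21.1 (low serum) and 11.3 to 23.8 (standard serum). VIM fell in MDA-MB-231 7TGP-POS by 1.05 (low serum) and by 1.03 (standard serum) on the log2 scale (adjusted p = 2.7e-20 and 1.2e-08), and its part in the results below was not tested. Of 8 mesenchymal markers, VIM in both serum conditions and FN1 in standard serum were lower in MDA-MB-231 7TGP-POS past the thresholds defined below. The list medians there were 0.13 and 0.03. The 7TGP-POS subline of MDA-MB-436 had more FN1 (low serum) and more AXL (standard serum), with medians of 0.31 and 0.58. The summed TPM of these 8 in MDA-MB-231 was 3352 and 3309 in 7TGP-NEG against 1911 and 1707.5 in 7TGP-POS in low serum. In standard serum it was 5440 and 4962 against 3107 and 2949. In MDA-MB-436 the mesenchymal sums were 742 and 686 against 688 and 754 (low serum) and 722 and 780 against 1163 and 1210 (standard serum). AXIN2, a feedback target of the Wnt pathway, rose in MDA-MB-231 7TGP-POS in low serum, from 8.59 to 13.3 CPM (log2 fold change 0.65, adjusted p = 8.3e-06), and did not pass the test in the other 3 comparisons (adjusted p = 0.11 to 0.68). Of the 8 Wnt target genes used as a check of the labels, 0 passed those thresholds in MDA-MB-231 in low serum, with edgeR or DESeq2, and 4 had an unadjusted p under 0.05 (LEF1, RNF43 and AXIN2 rose and SP5 fell). RNF43 was higher in MDA-MB-231 in standard serum, NKD1 was lower in MDA-MB-436 in low serum, and SP5 and RNF43 were lower there in standard serum. The medians of the 8 targets were 0.20 and -0.07 in MDA-MB-231 and -0.26 and -0.10 in MDA-MB-436. Their summed TPM in MDA-MB-231 was 20.87 and 20.88 in 7TGP-NEG against 22.7 and 20.45 in 7TGP-POS in low serum. In standard serum it was 24.2 and 22.6 against 25.1 and 25.9. In MDA-MB-436 the sums were 32.6 and 30.3 against 26.1 and 28.7 (low serum) and 30.06 and 30.4 against 39.4 and 39.85 (standard serum). The eGFP transcript was not analysed here. In these bulk libraries, fewer cells with a transcript and less of it per cell cannot be told apart.

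Integrins are cell-surface receptors built from 1 alpha and 1 beta subunit. The pairing sets the ligand: collagen, laminin, the RGD motif of fibronectin and vitronectin, or counter-receptors on other cells. Laminins are secreted trimers of an alpha, a beta and a gamma chain that form the sheet of the basement membrane, which integrins bind. In the mammary gland, contact with this sheet through laminin receptors keeps the epithelium polarized.

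Fold changes are 7TGP-POS over 7TGP-NEG on the log2 scale, from the quasi-likelihood test of edgeR, adjusted by the Benjamini-Hochberg method over all protein-coding genes tested, given with standard errors (SE). A gene passed both thresholds if its adjusted p was under 0.05 and its fold change was at least 1 or at most -1 on the log2 scale. "Rose" and "fell" are used at an adjusted p under 0.05. In MDA-MB-231, 5 of 35 members (14.3%) passed both thresholds in low serum, beside 5.9% of all genes, and 6 of 33 (18.2%) in standard serum, beside 7.69%. In MDA-MB-436, 14 of 35 (40.0%) passed in low serum, beside 10.5% of all genes, and 12 of 33 (36.4%) in standard serum, beside 12.5%. The median log2 fold change of the members was near 0 in MDA-MB-231, at -0.08 (low serum) and -0.07 (standard serum), where all genes had -0.01 and 0. In MDA-MB-436 it was 0.37 (low serum) and 0.02 (standard serum), where all genes had 0.01 and 0.00. Of the members past both thresholds, those with more transcript in 7TGP-POS were 3 of 5 and 3 of 6 in MDA-MB-231 and 9 of 14 and 7 of 12 in MDA-MB-436, for low and standard serum in that order. Of all genes past both thresholds, 59.4% and 64.6% in MDA-MB-231 and 61.8% and 51.7% in MDA-MB-436 were higher in 7TGP-POS. With limma on log2(TPM + 1), which moves the median of all expressed genes by -0.17 and -0.22 in low serum, the counts were 1 of 4 and 0 of 3 in MDA-MB-231 and 2 of 7 and 3 of 6 in MDA-MB-436. The shares of all genes with limma were not counted, so these member counts cannot be set beside them. With groups at 3 counts or fewer per library set to 3 counts, the 4 medians were -0.03, 0, 0.15 and 0.02. The median absolute log2 fold change was larger among members than among all genes in each comparison, 0.59 against 0.24 and 0.54 against 0.26 in MDA-MB-231 and 0.85 against 0.31 and 0.75 against 0.36 in MDA-MB-436. At an adjusted p under 0.05 alone, 17 of 35 and 18 of 33 members passed in MDA-MB-231, beside 38.9% and 33.0% of all genes, and 30 of 35 and 25 of 33 in MDA-MB-436, beside 52.0% and 49.5%. Of the 35 members tested in either condition, 18 (51.4%) passed both thresholds in at least 1 of the 4 comparisons, beside 21.7% of 16197 genes.

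The 4 comparisons share no library, although both serum conditions used the same sublines. Of the 33 members tested in both conditions, 9 changed the same way with an adjusted p under 0.05 in all 4, beside 4.76% of 15286 genes. ITGA1, ITGA11, ITGAV, ITGB8 and LAMA4 rose in each comparison, beside 2.52% of genes. ITGA2, ITGB4, LAMA3 and LAMB3 fell in each, beside 2.24%. These 9 directions were the same with DESeq2 size factors and on the deposited TPM. ITGA11 was the 1 member higher past both thresholds in all 4 comparisons, beside 0.36% of genes, and 0 were lower, beside 0.0916% (4 at an adjusted p under 0.05 alone). With DESeq2 the ITGA11 change in MDA-MB-231 in low serum did not pass (adjusted p = 0.12). Within MDA-MB-231, 4 of 33 members passed both thresholds the same way in both serum conditions, beside 3.69% of genes. These were ITGA11 and LAMA1 higher (2.45% of genes) and ITGB3 and ITGB4 lower (1.24%). Within MDA-MB-436, 10 of 33 did so, beside 7.22%. ITGA1, ITGA4, ITGA11, LAMA4 and LAMB1 were higher there (4.24% of genes) and ITGA2, ITGAM, ITGAX, LAMB3 and LAMC3 lower (2.98%). The plot of fold changes shows the 9 genes that changed the same way in all 4 comparisons on 1 side of the zero line. ITGA6, ITGB3, LAMA1, LAMB1 and LAMB2, among others, lie on opposite sides in the 2 lines.

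**Figure D1:**
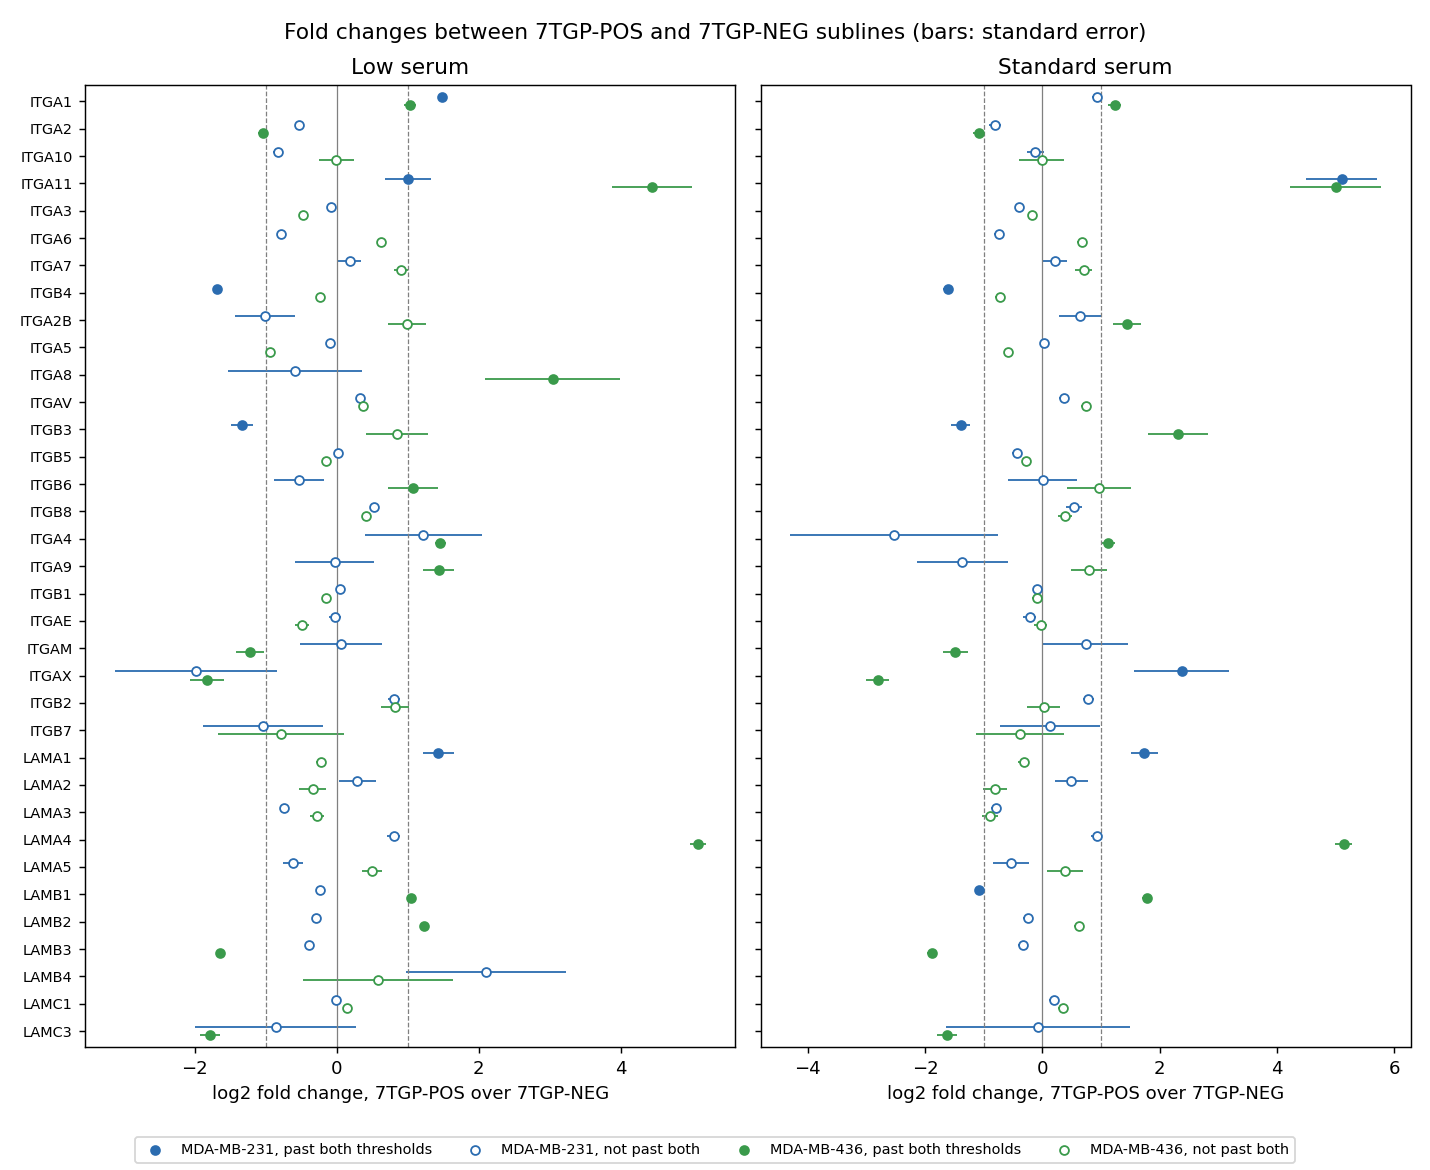
Each row is a member, ordered by role, and the horizontal axis is the log2 fold change of 7TGP-POS over 7TGP-NEG with its standard error, in blue for MDA-MB-231 and green for MDA-MB-436, in low serum (left) and standard serum (right). Filled points passed both thresholds (dashed lines at -1 and 1), and LAMA4 in MDA-MB-436 lies at 5.08 and 5.14.

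Promoter sequences were taken from RefSeq (build GRCh38.p14), as the 250 bases before a transcription start, read 5′ to 3′ on the strand of the gene. The table held 33 entries for 26 of the 37 genes. Promoters of 5 genes are shown for the genes on which the comparison turns: ITGA1 and ITGA2, which lie next to each other and changed in opposite directions, LAMA3 and LAMB3, which fell together, and LAMA4, which had the largest change that did not rest on a group at 3 counts or fewer. Capitals mark TGANTCA, the AP-1 motif, searched on both strands, which was chosen after the sequences had been seen. The core of the Tcf/Lef site, ATCAAAG or CTTTGAT on the other strand, was in none of the 33 member entries and in 2.26% of 35116 entries of all genes. TGANTCA was in 2 member entries, 1 of LAMA3 and 1 of LAMB3, and in 6.57% of all entries. LAMB3 has 2 other entries without either motif, at chr1:209652330-209652579 and chr1:209652426-209652675. Both lie upstream of the LAMB3 entry shown. A match describes letters in this window only.
ITGA1, chr5:52787666-52787915, plus strand: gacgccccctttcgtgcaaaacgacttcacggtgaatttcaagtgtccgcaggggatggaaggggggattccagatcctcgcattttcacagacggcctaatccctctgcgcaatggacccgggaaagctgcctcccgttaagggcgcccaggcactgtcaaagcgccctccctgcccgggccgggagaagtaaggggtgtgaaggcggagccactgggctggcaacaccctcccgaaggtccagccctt
ITGA2, chr5:52989102-52989351, plus strand: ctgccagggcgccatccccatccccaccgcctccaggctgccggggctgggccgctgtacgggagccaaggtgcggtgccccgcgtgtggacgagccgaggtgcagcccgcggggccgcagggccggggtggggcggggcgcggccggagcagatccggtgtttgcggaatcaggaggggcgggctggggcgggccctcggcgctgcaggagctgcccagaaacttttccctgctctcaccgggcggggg
LAMA3, chr18:23872770-23873019, plus strand: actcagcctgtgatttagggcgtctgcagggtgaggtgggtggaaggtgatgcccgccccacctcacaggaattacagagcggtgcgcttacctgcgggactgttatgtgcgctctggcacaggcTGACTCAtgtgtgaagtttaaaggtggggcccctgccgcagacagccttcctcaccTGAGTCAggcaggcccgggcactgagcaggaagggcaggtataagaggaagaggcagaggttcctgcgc
LAMB3, chr1:209651375-209651624, minus strand: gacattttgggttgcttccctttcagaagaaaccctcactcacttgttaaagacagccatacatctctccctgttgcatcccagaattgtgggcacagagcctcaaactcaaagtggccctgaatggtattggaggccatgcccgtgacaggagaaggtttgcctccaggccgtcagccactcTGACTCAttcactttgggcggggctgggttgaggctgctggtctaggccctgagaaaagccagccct
LAMA4, chr6:112254568-112254817, minus strand: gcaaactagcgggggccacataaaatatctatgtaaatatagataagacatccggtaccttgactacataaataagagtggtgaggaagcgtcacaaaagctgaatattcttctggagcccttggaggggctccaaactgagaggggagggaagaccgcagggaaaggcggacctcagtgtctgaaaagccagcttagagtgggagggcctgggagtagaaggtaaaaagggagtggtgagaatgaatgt

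Levels can be compared between genes only per transcript length, for which the deposited TPM was used. ITGB1, the beta subunit shared by most collagen, laminin and fibronectin receptors, had the highest mean of all members in 6 of the 8 groups, and LAMB3 had it in both MDA-MB-231 groups in standard serum. It stood at 658 ± 16.2 TPM (SD, n = 2) in MDA-MB-231 7TGP-NEG and 593 ± 28.9 in 7TGP-POS in low serum, and at 223 ± 17.3 and 169 ± 6.52 in MDA-MB-436. ITGA3, the alpha subunit of a laminin receptor, was the highest alpha subunit in all 8 groups, from 103 ± 7.2 TPM in MDA-MB-436 7TGP-POS in low serum to 867 ± 29.2 in MDA-MB-231 7TGP-NEG in standard serum. Among laminin chains, LAMB3 led in MDA-MB-231, with 586 ± 11.9 TPM in 7TGP-NEG and 388 ± 32.5 in 7TGP-POS (low serum) and 1659 ± 97.2 and 1352 ± 81.7 (standard serum). In MDA-MB-436, the first laminin chain was LAMC1 in 7TGP-NEG in both serum conditions and in 7TGP-POS in standard serum, and LAMB2 in 7TGP-POS in low serum. In that last group LAMB2 (133 ± 18.5), LAMA5 (113 ± 18.9), LAMC1 (111 ± 9.44) and LAMB1 (107 ± 9.53) lay close together, and the highest library of LAMA5 (126.7) was above the lowest of LAMB2 (119.9). The plot of TPM by library gives all 16 values of each member.

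**Figure D2:**
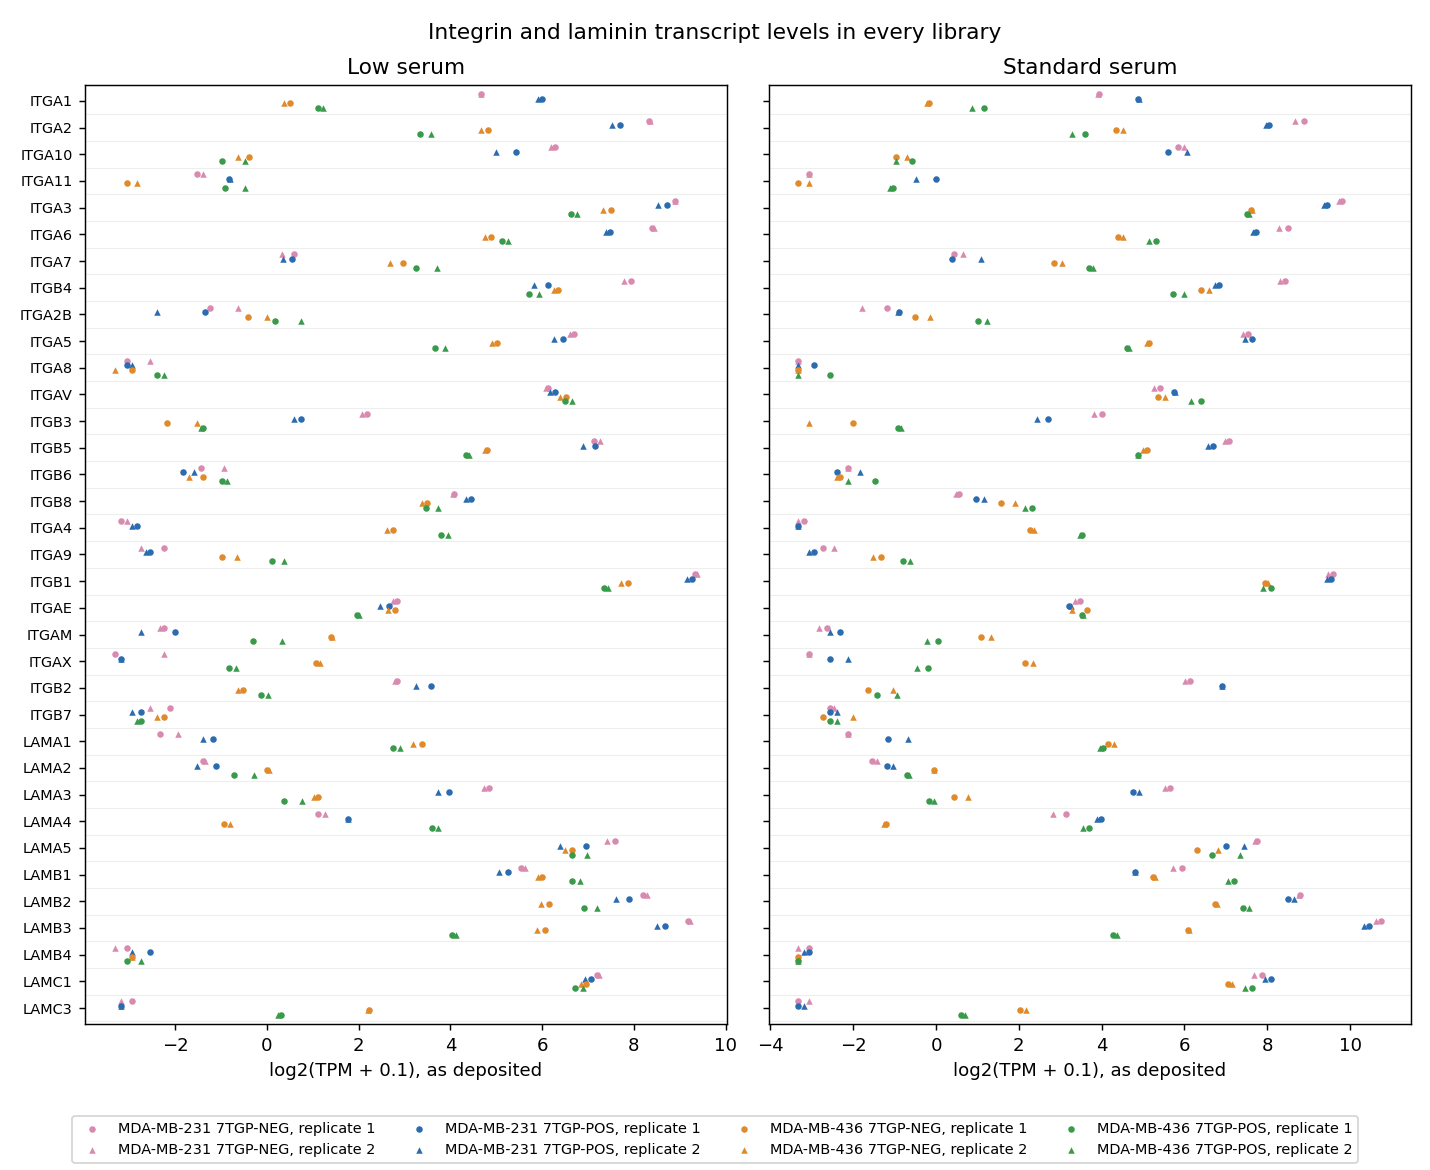
Deposited TPM of each member on the scale log2(TPM + 0.1), 1 point per library, with circles for replicate 1 and triangles for replicate 2, in low serum (left) and standard serum (right). Colours are the 4 sublines, and ITGB1 and ITGA3 lie at the right of the integrin rows in all of them.

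The collagen-binding integrins pair an alpha subunit with ITGB1 and include ITGA1, ITGA2, ITGA10 and ITGA11. ITGA1 rose and ITGA2 fell in all 4 comparisons. ITGA1 (ENSG00000213949, GRCh37 chr5:52083750-52255039) encodes the alpha subunit that prefers basement membrane collagen. In low serum it had 191 and 190 CPM in the 2 libraries of MDA-MB-231 7TGP-NEG and 521 and 541 CPM in 7TGP-POS, a change of 1.49 (SE 0.049, adjusted p = 4.5e-26). The MDA-MB-436 libraries had 7.65 and 7.61 CPM in 7TGP-NEG and 15.8 and 15.7 CPM in 7TGP-POS, a change of 1.03 (SE 0.081, adjusted p = 3.3e-14). The groups did not overlap in either line, and the level in MDA-MB-436 was far below that in MDA-MB-231. In standard serum ITGA1 had 74.0 and 74.6 CPM against 144 and 150 CPM in MDA-MB-231, a change of 0.93 (SE 0.086, adjusted p = 1.4e-07). MDA-MB-436 had 4.03 and 3.81 CPM against 10.5 and 8.53 CPM, a change of 1.23 (SE 0.12, adjusted p = 9.7e-08). The MDA-MB-436 change in low serum lay at the fold threshold, falling to 0.96 without 7TGP-POS replicate 1. This call was lost under 4 of the alternatives other than limma. PELO, a ribosome rescue factor, lies within ITGA1 on the same strand. The study's methods name STAR's gene quantification mode, which leaves out reads that overlap exons of more than 1 gene.

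ITGA2 (ENSG00000164171, GRCh37 chr5:52285170-52390609), the next gene downstream, encodes the alpha subunit that prefers fibrillar collagen. In low serum it had 1029 and 1034 CPM in MDA-MB-231 7TGP-NEG and 715 and 710 CPM in 7TGP-POS, a change of -0.53 (SE 0.048, adjusted p = 4.8e-12). In MDA-MB-436 it had 70.1 and 68.5 CPM against 32.8 and 35.0 CPM, a change of -1.05 (SE 0.057, adjusted p = 2.8e-19). The 7TGP-POS libraries were lower in each line. In standard serum the 4 libraries had 975 and 870 against 555 and 542 CPM in MDA-MB-231, a change of -0.81 (SE 0.096, adjusted p = 1.1e-05). In MDA-MB-436 they had 44.2 and 48.7 against 25.0 and 20.5 CPM, a change of -1.08 (SE 0.10, adjusted p = 6.6e-07). The 50 nearest genes had a median change of -0.44 and -0.50 in MDA-MB-436, and after that was subtracted the ITGA2 change was -0.61 (low serum) and -0.58 (standard serum), no longer past the fold threshold. ITGA1 lies in the same stretch and rose, and the part of the stretch in either change was not tested. The ratio of ITGA2 to ITGA1 TPM was 12.7 and 12.8 in MDA-MB-231 7TGP-NEG and 3.22 and 3.08 in 7TGP-POS in low serum. In MDA-MB-436 it was 21.4 and 21.2 against 4.87 and 5.25. In standard serum the ratio was likewise lower in every 7TGP-POS library, at 30.9 and 27.4 against 9.02 and 8.50 in MDA-MB-231 and 25.65 and 29.9 against 5.60 and 5.63 in MDA-MB-436.

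ITGA11 (ENSG00000137809, GRCh37 chr15:68588870-68724502), a fibrillar collagen receptor subunit of stromal cells, was scarce throughout, with at most 1.36 CPM in any library. In low serum it had 18 and 19 counts in MDA-MB-231 7TGP-NEG and 34 and 37 in 7TGP-POS, a change of 1.00 (SE 0.32, adjusted p = 0.011). This value lay at the fold threshold and was 0.95 without 7TGP-NEG replicate 1 and 0.88 without 7TGP-POS replicate 2, and it did not pass with DESeq2 (adjusted p = 0.12). The MDA-MB-436 libraries had 1 and 2 counts against 32 and 37, a CPM ratio of 23.7 (95% exact interval 7.77 to 118, counting error only, adjusted p = 9.7e-09). Standard serum gave 1 and 1 counts against 46 and 34 in MDA-MB-231, a ratio of 39.1 (10.5 to 329, adjusted p = 3.3e-06), and 0 and 1 against 27 and 20 in MDA-MB-436, a ratio of 41.6 (7.10 to 1676, adjusted p = 3.3e-05). ITGA10, a receptor of cartilage collagen, fell in MDA-MB-231 in low serum by 0.83 on the log2 scale (SE 0.063, adjusted p = 3.2e-11) and did not pass the test in the other 3 comparisons (adjusted p = 0.58 to 1).

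The laminin-binding group holds ITGA3, ITGA6, ITGA7 and ITGB4. ITGB4 (ENSG00000132470, GRCh37 chr17:73717408-73753899) pairs with ITGA6 in the hemidesmosome, which ties intermediate filaments to laminin. It fell in all 4 comparisons and passed the fold threshold in MDA-MB-231. In low serum it had 674 and 602 CPM in MDA-MB-231 7TGP-NEG and 206 and 188 CPM in 7TGP-POS, a change of -1.69 (SE 0.053, adjusted p = 1.4e-26). In standard serum it had 604 and 578 against 205 and 197 CPM, a change of -1.61 (SE 0.089, adjusted p = 2.0e-10). The 7TGP-POS libraries were lower in both conditions and the groups did not overlap. MDA-MB-436 had 172 and 177 against 147 and 154 CPM in low serum, a change of -0.23 (SE 0.053, adjusted p = 0.00036), and 156 and 176 against 94.8 and 115 CPM in standard serum, a change of -0.73 (SE 0.088, adjusted p = 2.5e-06). The fall was larger in MDA-MB-231 in low serum, with a difference of changes of -1.46 (SE 0.075, adjusted p = 1.5e-19). In standard serum the difference was -0.88 (SE 0.12, adjusted p = 1.8e-05), under the fold threshold. ITGB4 made up 23.1% and 20.7% of the summed TPM of the beta subunits in MDA-MB-231 7TGP-NEG and 8.09% and 7.30% in 7TGP-POS in low serum.

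ITGA6, the alpha partner of ITGB4, changed in opposite directions in the 2 lines. In MDA-MB-231 it had 914 and 935 CPM against 522 and 548 CPM in low serum, a change of -0.78 (SE 0.050, adjusted p = 1.4e-16), and a change of -0.74 (SE 0.083, adjusted p = 1.4e-06) in standard serum. In MDA-MB-436 it had 62.5 and 61.9 CPM against 97.3 and 96.0 CPM in low serum, a change of 0.62 (SE 0.055, adjusted p = 9.2e-13), and a change of 0.68 (SE 0.087, adjusted p = 4.0e-06) in standard serum. The difference between the lines was -1.40 (SE 0.074, adjusted p = 2.4e-19) and -1.42 (SE 0.12, adjusted p = 3.7e-08). ITGA3 fell in MDA-MB-436 in low serum by 0.48 and in MDA-MB-231 in standard serum by 0.40 on the log2 scale, with adjusted p = 9.6e-11 and 0.00029. ITGA7, a laminin receptor subunit of muscle, rose in MDA-MB-436 by 0.91 and 0.70 (adjusted p = 3.0e-10 and 0.00094) and did not pass in MDA-MB-231. ITGB1 had changes between -0.15 and 0.05 in the 4 comparisons, of which the -0.15 of MDA-MB-436 in low serum passed the test (adjusted p = 0.013).

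**Figure D3:**
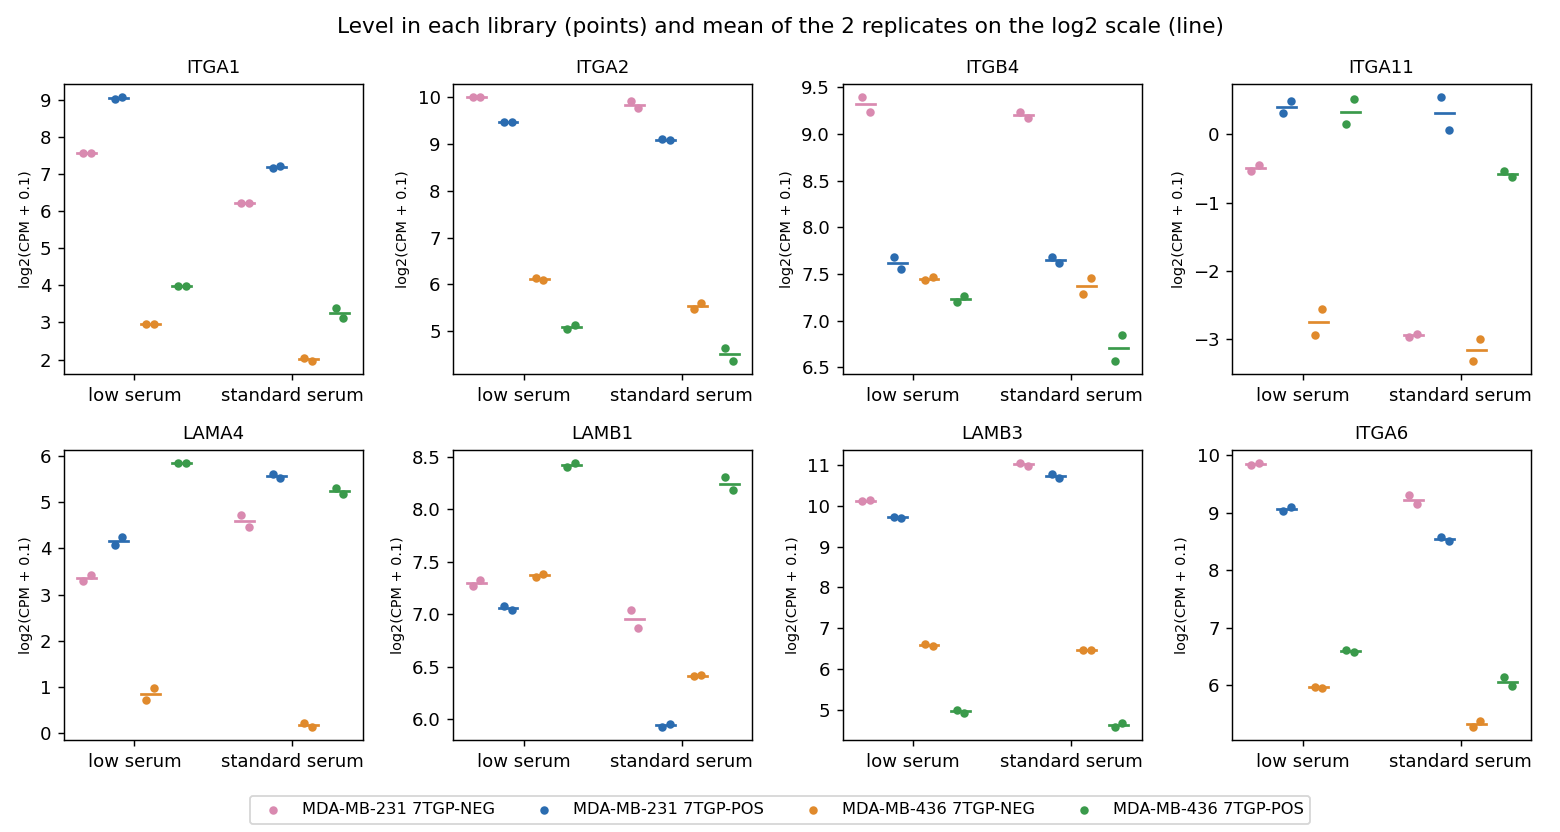
Level of 8 members in each of the 16 libraries on the scale log2(CPM + 0.1), with points for libraries and a line for the mean of the 2 replicates on that scale, coloured by subline. ITGA1, ITGA11 and LAMA4 are higher and ITGA2, ITGB4 and LAMB3 lower in every 7TGP-POS library than in the 7TGP-NEG libraries of its line and serum condition, while ITGA6 and LAMB1 are lower in MDA-MB-231 and higher in MDA-MB-436.

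Among the subunits of RGD-binding receptors, ITGAV and ITGB8 rose in all 4 comparisons by less than the fold threshold. Their dimer is known to activate latent TGF-beta. ITGAV, the alpha subunit of the vitronectin receptors, had changes of 0.33 and 0.37 (low serum) and 0.37 and 0.75 (standard serum), for MDA-MB-231 and MDA-MB-436 in that order (SE 0.050, 0.050, 0.088 and 0.087, adjusted p = 0.003 at most). ITGB8 had changes of 0.53 and 0.42 (low serum) and 0.54 and 0.39 (standard serum) (SE 0.053, 0.057, 0.14 and 0.12, adjusted p = 0.012 at most), and with DESeq2 the last of them had an adjusted p of 0.070. ITGA5, the alpha subunit of the main fibronectin receptor, fell in MDA-MB-436 by 0.94 (low serum) and by 0.58 (standard serum) on the log2 scale (adjusted p = 4.3e-18 and 6.4e-06). It did not pass the test in MDA-MB-231, where the changes were -0.09 and 0.03 (adjusted p = 0.13 and 0.81).

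ITGB3 (ENSG00000259207, GRCh37 chr17:45331193-45391109), the partner of ITGAV in a vitronectin receptor and of ITGA2B on platelets, fell in MDA-MB-231. It had 8.94 and 8.11 CPM in 7TGP-NEG and 3.38 and 3.35 CPM in 7TGP-POS in low serum, a change of -1.33 (SE 0.15, adjusted p = 1.1e-09). Standard serum gave 20.5 and 18.7 against 8.45 and 7.05 CPM, a change of -1.39 (SE 0.16, adjusted p = 5.7e-06). In MDA-MB-436 it was near the detection limit, with 6 and 12 counts against 18 and 14 in low serum (change 0.85, SE 0.44, adjusted p = 0.10) and 7 and 1 against 26 and 22 in standard serum (change 2.31, SE 0.51, adjusted p = 0.0015). The changes differed between the lines by -2.18 (SE 0.46, adjusted p = 0.00013) in low serum and -3.70 (SE 0.52, adjusted p = 3.5e-05) in standard serum.

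The other RGD-binding members were scarce or changed little. ITGA2B had at most 3.32 CPM in any library and rose in MDA-MB-436 in standard serum, with 31 and 48 counts against 130 and 121 (change 1.44, SE 0.24, adjusted p = 5.8e-05). In low serum its change there was 0.98 (SE 0.27, adjusted p = 0.0032, with DESeq2 0.054). ITGB6, the beta subunit of an epithelial TGF-beta activator, passed both thresholds in MDA-MB-436 in low serum. It had 18 and 13 counts against 34 and 30 (change 1.07, SE 0.35, adjusted p = 0.0092). The ITGB6 call was lost under 4 of the alternatives other than limma. Among them were leaving out 7TGP-NEG replicate 2 (change 0.96) or 7TGP-POS replicate 1, and DESeq2 (adjusted p = 0.097). ITGA8 passed there with 2 and 0 counts against 9 and 9, a ratio of 9.26 (2.22 to 82.3, adjusted p = 0.0065), and not without 7TGP-NEG replicate 2 or with DESeq2 (adjusted p = 0.066). ITGB5 fell in MDA-MB-231 in standard serum and in MDA-MB-436 in both conditions, by at most 0.44 on the log2 scale.

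ITGA4 and ITGA9 encode alpha subunits that bind VCAM1, fibronectin variants and tenascin. ITGA4 (ENSG00000115232, GRCh37 chr2:182321929-182403667) was expressed in MDA-MB-436 and had at most 4 counts in any MDA-MB-231 library. The MDA-MB-436 libraries had 16.4 and 16.4 CPM against 45.1 and 45.7 CPM in low serum, a change of 1.46 (SE 0.077, adjusted p = 1.6e-19). In standard serum it had 10.2 and 10.9 against 24.02 and 23.4 CPM, a change of 1.11 (SE 0.12, adjusted p = 6.8e-07). The groups were well apart in both conditions. ITGA9 in MDA-MB-436 had 1.07 and 1.54 CPM against 3.35 and 3.73 CPM in low serum (change 1.44, SE 0.22, adjusted p = 5.8e-07), beside a median change of 0.65 in its 50 nearest genes, and a change of 0.80 (SE 0.30, adjusted p = 0.035, with DESeq2 0.38) in standard serum. With that median subtracted, the low serum change was 0.78.

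The subunits known from leukocytes were scarce in both lines, apart from ITGB2 in MDA-MB-231 and ITGAE. ITGAM and ITGAX, alpha subunits of complement receptors that lie side by side on chromosome 16, fell in MDA-MB-436. ITGAM had 4.50 and 5.03 CPM against 1.68 and 2.47 CPM in low serum (change -1.22, SE 0.19, adjusted p = 9.9e-07) and 3.14 and 3.73 against 1.39 and 1.15 CPM in standard serum (change -1.48, SE 0.21, adjusted p = 1.5e-05). ITGAX had 4.13 and 4.78 CPM against 1.23 and 1.29 CPM in low serum (change -1.83, SE 0.24, adjusted p = 1.5e-07) and 7.88 and 8.76 against 1.35 and 1.10 CPM in standard serum (change -2.81, SE 0.19, adjusted p = 1.0e-09). PTPRC, which defines leukocytes, had group means of 0.14 to 0.33 CPM in this line, and CD3E, CD2 and MS4A1 had under 10 counts over the libraries of a serum condition. The summed TPM of 7 leukocyte markers was 8.37 to 8.99 in 7TGP-NEG and 13.1 to 15.1 in 7TGP-POS in low serum, and 11.4 to 12.05 against 6.33 to 9.25 in standard serum. Their part in the ITGAM and ITGAX results was not tested. In MDA-MB-231 ITGAX passed both thresholds in standard serum with 1 and 1 counts against 4 and 8, a ratio of 5.87 (1.31 to 54.0, adjusted p = 0.031), and not without either 7TGP-NEG library, without 7TGP-POS replicate 2 or with DESeq2 (adjusted p = 0.088).

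ITGB2, the beta subunit of the leukocyte integrins, rose in MDA-MB-231. It had 19.5 and 18.6 CPM against 35.1 and 31.2 CPM in low serum (change 0.81, SE 0.080, adjusted p = 4.5e-11) and 124 and 120 against 217 and 220 CPM in standard serum (change 0.79, SE 0.088, adjusted p = 1.8e-06). PTPRC was at 1.93 and 4.22 CPM on average in 7TGP-NEG and 7TGP-POS in low serum (change 1.14, adjusted p = 3.6e-06) and at 7.10 and 9.24 CPM in standard serum (adjusted p = 0.12). The summed TPM of the 7 leukocyte markers was 7.82 to 10.03 in 7TGP-NEG and 9.01 to 10.7 in 7TGP-POS in low serum and 7.13 to 7.28 against 7.70 to 7.88 in standard serum, and their part in the ITGB2 result was not tested. In MDA-MB-436 ITGB2 rose by 0.82 in low serum at 1.29 and 1.29 against 2.28 and 2.33 CPM (adjusted p = 0.00049). ITGAE, the alpha subunit that binds E-cadherin, fell in MDA-MB-436 in low serum by 0.49 on the log2 scale (adjusted p = 2.8e-05) and did not pass elsewhere. ITGB7 had at most 7 counts in any library.

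The laminin alpha chains carry the main integrin-binding site of the trimer. LAMA4 (ENSG00000112769, GRCh37 chr6:112429134-112576141), the alpha chain of vascular and mesenchymal laminins, rose in all 4 comparisons. MDA-MB-436 had 1.53 and 1.85 CPM in 7TGP-NEG and 57.9 and 57.3 CPM in 7TGP-POS in low serum, a change of 5.08 (SE 0.11, adjusted p = 1.6e-32). Standard serum gave 1.07 and 0.996 against 39.4 and 36.2 CPM, a change of 5.14 (SE 0.15, adjusted p = 1.1e-14). In MDA-MB-231 it had 9.72 and 10.7 against 16.6 and 18.8 CPM in low serum (change 0.80, SE 0.092, adjusted p = 1.8e-09) and 26.2 and 21.9 against 48.5 and 46.3 CPM in standard serum (change 0.92, SE 0.10, adjusted p = 1.1e-06). The rise was larger in MDA-MB-436, with a difference between the lines of -4.28 (SE 0.16, adjusted p = 1.6e-24) in low serum and -4.22 (SE 0.18, adjusted p = 4.4e-12) in standard serum. LAMA4 was 0.37% and 0.46% of the summed alpha chain TPM in MDA-MB-436 7TGP-NEG and 10.0% and 8.82% in 7TGP-POS in low serum.

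LAMA3, the alpha chain of the epithelial laminin that also holds LAMB3, fell in all 4 comparisons. In MDA-MB-231 it had 157 and 145 CPM against 92.5 and 87.0 CPM in low serum (change -0.74, SE 0.057, adjusted p = 3.5e-14) and a change of -0.79 (SE 0.085, adjusted p = 9.4e-07) in standard serum. In MDA-MB-436 the changes were -0.28 (SE 0.099, adjusted p = 0.016) and -0.89 (SE 0.13, adjusted p = 1.6e-05). LAMA1, the alpha chain of the embryonic basement membrane, was scarce in MDA-MB-231 and rose there, with 0.65 and 1.04 against 2.37 and 2.15 CPM in low serum (change 1.43, SE 0.22, adjusted p = 6.4e-07) and 0.52 and 0.57 against 1.48 and 2.29 CPM in standard serum (change 1.74, SE 0.23, adjusted p = 1.3e-05). In MDA-MB-436 it fell from 51.4 and 49.2 to 43.4 and 43.7 CPM in low serum (change -0.22, SE 0.067, adjusted p = 0.0051) and by 0.32 on the log2 scale in standard serum (adjusted p = 0.0091). LAMA1 changed differently in the 2 lines, by 1.65 (SE 0.23, adjusted p = 6.9e-08) in low serum and 2.06 (SE 0.25, adjusted p = 3.7e-06) in standard serum.

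LAMA5, the alpha chain of most adult basement membranes, was the most abundant alpha chain in every library, at 74.7% to 88.0% of the summed alpha chain TPM. It had 1156 and 1012 against 798 and 606 CPM in MDA-MB-231 in low serum (change -0.62, SE 0.14, adjusted p = 0.025) and 465 and 453 against 609 and 700 CPM in MDA-MB-436 (change 0.50, SE 0.14, adjusted p = 0.040). The groups did not overlap in either line. In standard serum it had 396 and 642 CPM in the 2 libraries of MDA-MB-436 7TGP-POS, against 319 and 444 CPM in 7TGP-NEG. These groups overlapped, and the test was not passed in either line (adjusted p = 0.29 and 0.38). LAMA2, the alpha chain of muscle, fell in MDA-MB-436 in standard serum by 0.81 on the log2 scale (adjusted p = 0.0035, with DESeq2 0.078) and did not pass the test in the other 3 comparisons.

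Of the beta chains, LAMB3 fell in all 4 comparisons, and LAMB1 and LAMB2 split between the lines. LAMB3 (ENSG00000196878, GRCh37 chr1:209788215-209825770) had 1102 and 1121 CPM in MDA-MB-231 7TGP-NEG and 843 and 836 CPM in 7TGP-POS in low serum, a change of -0.40 (SE 0.049, adjusted p = 8.6e-09). Standard serum gave 2119 and 2020 against 1762 and 1646 CPM, a change of -0.33 (SE 0.076, adjusted p = 0.0022). The fall was small beside that in MDA-MB-436. There it had 98.6 and 95.2 CPM against 31.9 and 30.6 CPM in low serum, a change of -1.65 (SE 0.057, adjusted p = 1.1e-25), and 87.9 and 88.2 against 23.98 and 25.6 CPM in standard serum, a change of -1.89 (SE 0.083, adjusted p = 3.2e-12). The difference between the lines was 1.25 (SE 0.075, adjusted p = 1.6e-17) in low serum and 1.55 (SE 0.11, adjusted p = 4.3e-09) in standard serum.

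LAMB1 (ENSG00000091136, GRCh37 chr7:107564244-107643658), the beta chain of most embryonic and many adult laminins, rose in MDA-MB-436 and fell in MDA-MB-231. In MDA-MB-436 it had 164 and 167 CPM against 338 and 348 CPM in low serum (change 1.04, SE 0.048, adjusted p = 2.0e-21) and 84.9 and 85.4 against 317 and 291 CPM in standard serum (change 1.78, SE 0.081, adjusted p = 5.7e-12). In MDA-MB-231 it had 155 and 161 against 135 and 131 CPM in low serum (change -0.23, SE 0.049, adjusted p = 0.00017) and 131 and 117 against 60.7 and 62.0 CPM in standard serum (change -1.07, SE 0.081, adjusted p = 1.1e-08). The standard serum value in MDA-MB-231 lay near the fold threshold and was -0.97 without 7TGP-NEG replicate 1. The low serum value in MDA-MB-436 also lay near it, and that call was lost under 1 of the alternatives other than limma. The difference between the lines was -1.27 (SE 0.069, adjusted p = 5.9e-19) in low serum and -2.85 (SE 0.12, adjusted p = 1.9e-12) in standard serum. DLD, an enzyme of mitochondrial dehydrogenases, overlaps LAMB1 on the opposite strand, and whether counting used strand was not stated.

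LAMB2, the beta chain of synaptic and glomerular laminins, rose in MDA-MB-436, with 154 and 148 CPM against 341 and 377 CPM in low serum (change 1.23, SE 0.053, adjusted p = 9.6e-23) and 201 and 207 against 309 and 344 CPM in standard serum (change 0.62, SE 0.076, adjusted p = 2.3e-06). The 50 nearest genes had a median change of 0.49 in low serum, and with it subtracted the LAMB2 change was 0.75. In MDA-MB-231 it fell by 0.29 and 0.25 on the log2 scale (adjusted p = 1.0e-05 and 0.016). The share of LAMB3 in the summed beta chain TPM of MDA-MB-436 was 33.1% and 32.5% in 7TGP-NEG and 6.93% and 6.26% in 7TGP-POS in low serum, and 32.1% and 31.6% against 5.74% and 5.99% in standard serum. In MDA-MB-231 it stayed between 59.8% and 62.9% in low serum and between 75.1% and 78.3% in standard serum. LAMB4 had at most 6 counts in any library.

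The gamma chains close the trimer. LAMC1, the gamma chain of most laminins, rose in MDA-MB-436 by 0.15 (low serum) and 0.35 (standard serum) (adjusted p = 0.010 and 0.0024) and did not pass the test in MDA-MB-231. On the scale log2(TPM + 1) the low serum value in MDA-MB-436 was -0.10, beside the shift of -0.22 in the median of all expressed genes. LAMC3, a gamma chain of retina and other nonepithelial sites, fell in MDA-MB-436, with 10.9 and 11.8 CPM against 3.54 and 3.08 CPM in low serum (change -1.78, SE 0.14, adjusted p = 3.8e-14) and 8.38 and 9.14 against 2.85 and 3.10 CPM in standard serum (change -1.62, SE 0.17, adjusted p = 3.8e-07). It had at most 3 counts in any MDA-MB-231 library.

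The change between 7TGP-POS and 7TGP-NEG differed between the cell lines, past both thresholds, for 14 of 35 members in low serum, beside 11.7% of all genes, and for 10 of 33 in standard serum, beside 13.8%. ITGA6, ITGA9, ITGB3, LAMA1, LAMA4, LAMB1 and LAMB3 did so in the same direction in both conditions, 7 of 33 members beside 6.91% of all genes. The ITGA9 differences rest on at most 11 counts in each MDA-MB-231 library and were lost under 12 of the alternatives in each condition, DESeq2 among them (adjusted p = 0.11 and 0.16). Of these 7, LAMA1 and LAMB3 had positive differences, beside 3.0% of genes, and 5 had negative ones, beside 3.91%. In low serum 12 of the 14 differences were negative, meaning that the change was lower or more negative in MDA-MB-231, beside 7.01% of genes, and 2 were positive, beside 4.72%. In standard serum 5 were negative and 5 positive, beside 6.81% and 7.02%. At an adjusted p under 0.05 alone, 23 of 35 differed in low serum, beside 45.7%, and 14 of 33 in standard serum, beside 41.2%. These differences use the same libraries as the separate comparisons.

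Among members, the median absolute log2 fold change between the 7TGP-NEG sublines of the 2 cell lines was 2.17 (low serum) and 2.31 (standard serum), beside 0.92 and 1.02 among all genes. Between the 7TGP-NEG sublines, 26 of 35 members passed both thresholds in low serum, beside 41.9% of all genes, and 26 of 33 in standard serum, beside 46.7%. At an adjusted p under 0.05 alone the counts were 29 of 35, beside 79.2%, and 28 of 33, beside 78.8%. The median log2 fold change of MDA-MB-231 over MDA-MB-436 was 1.34 among members and 0.01 among all genes in low serum. In standard serum the same medians were 1.12 and -0.09. With groups at 3 counts or fewer per library set to 3 counts, the member medians were 1.05 and 0.85. In both conditions 16 members were higher in MDA-MB-231, beside 16.5% of all genes, and 8 were higher in MDA-MB-436, beside 18.8%, or 24 of 33 beside 35.3% in all. These comparisons share the 7TGP-NEG libraries with those above.

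The members higher in MDA-MB-231 included LAMA3 and LAMB3 of the epithelial laminin and the collagen, laminin and fibronectin receptor subunits ITGA1, ITGA2, ITGA3, ITGA5, ITGA6, ITGA10, ITGB1 and ITGB4. For LAMB3 the difference was 3.62 (low serum) and 4.76 (standard serum), and for LAMA3 it was 4.19 and 5.22. ITGA10 differed by 7.36 (SE 0.11, adjusted p = 3.7e-28) and 7.18 (SE 0.23, adjusted p = 4.8e-09), at 193 ± 10.1 CPM (SD, n = 2) in MDA-MB-231 7TGP-NEG against 1.32 and 1.19 CPM in the MDA-MB-436 7TGP-NEG libraries in low serum. The members higher in MDA-MB-436 were ITGA4, ITGA7, ITGA9, ITGAM, ITGAX, LAMA1, LAMA2 and LAMC3. LAMA1 differed by -5.79 (SE 0.12, adjusted p = 1.6e-34) and -7.00 (SE 0.16, adjusted p = 1.8e-17). For ITGA4 the ratio of MDA-MB-436 to MDA-MB-231 was 332 (95% exact interval 113 to 1611) in low serum and for LAMC3 it was 172 (66.8 to 632). ITGAV, which pairs with 5 of the beta subunits listed here, did not pass the test between the lines (differences of 0.05 and 0.06, SE 0.050 and 0.088, adjusted p = 0.36 and 0.55). 

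**Figure D4:**
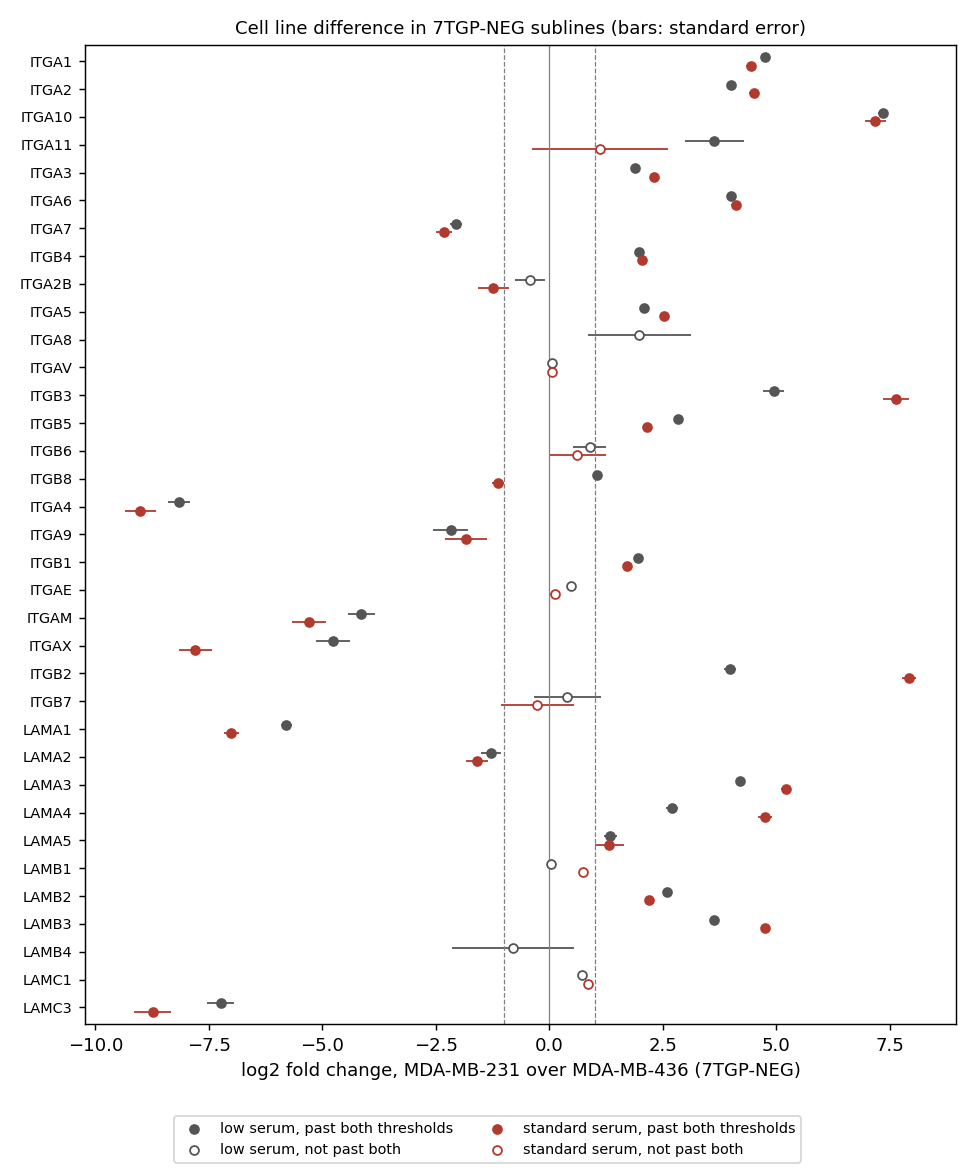
Log2 fold change of MDA-MB-231 7TGP-NEG over MDA-MB-436 7TGP-NEG with its standard error for each member, in grey for low serum and red for standard serum, with filled points past both thresholds. Laminin chains LAMA3 and LAMB3 lie at 3.62 to 5.22, LAMA1 at -5.79 and -7.00, and ITGB8 lies on opposite sides of 0 in the 2 serum conditions.

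Partners of integrins and laminins were counted in 3 lists. Among 18 basement membrane partners of laminin, 3 were higher and 1 was lower past both thresholds in MDA-MB-231 in each serum condition, beside 3.5% and 2.4% of all genes (low serum) and 4.96% and 2.72% (standard serum). The type IV collagen chains COL4A5 and COL4A6 rose by 2.76 and 2.72 (low serum) and by 4.27 and 4.02 (standard serum), and BCAM, a receptor for LAMA5, fell by 1.66 and by 1.13. In MDA-MB-436, 5 were higher and 0 lower in low serum and 3 higher and 1 lower in standard serum, beside 6.52% and 4.03% of all genes and 6.47% and 6.06%. PXDN, which crosslinks type IV collagen, rose by 2.10 and 2.15, SPARC, which binds it, by 2.97 and 2.78, and NTN4, which binds laminin gamma chains, by 1.10 and 1.30. Beside the edgeR count of 0 lower, 5 genes of the list were lower at an unadjusted p under 0.05, and 0 passed with DESeq2's adjusted p and the same fold. The list medians were 0.30 and 0.34 in MDA-MB-231 and 0.28 and 0.17 in MDA-MB-436.

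Among other integrin ligands, 9 of 22 were higher and 0 lower in MDA-MB-436 in low serum and 7 of 21 were higher and 0 lower in standard serum, with medians of 0.94 and 0.66. All genes higher and lower in MDA-MB-436 were 6.52% and 4.03% (low serum) and 6.47% and 6.06% (standard serum). Lower at an unadjusted p under 0.05 in edgeR were 2 and 5 genes of this list, and 0 passed with DESeq2's adjusted p and the same fold. THBS1, an adhesive glycoprotein, rose by 2.71 and 2.88, CCN2, a matricellular protein, by 2.51 and 3.11, and VCAM1, the ligand of ITGA4, by 3.61 and 3.74. VCAM1 went from 0.22 to 2.64 CPM on average in low serum. FN1, fibronectin, rose in MDA-MB-436 in low serum from 139 to 362 CPM (change 1.37, SE 0.052, adjusted p = 1.4e-24). In MDA-MB-231 the counts were 3 higher and 0 lower in low serum and 1 higher and 3 lower in standard serum, with medians of -0.03 and 0.24, beside 3.5% and 2.4% of all genes (low serum) and 4.96% and 2.72% (standard serum). Beside that count of 0, 4 genes were lower at an unadjusted p under 0.05 in edgeR and 0 passed with DESeq2. There FN1 fell in standard serum from 1500.2 to 354 CPM (change -2.14, SE 0.095, adjusted p = 3.7e-11), and ICAM2, a ligand of leukocyte integrins, rose by 1.98 and 2.47.

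Among cytoplasmic and membrane partners of integrins, 0 of 35 were higher and 5 lower in MDA-MB-436 in low serum, and 1 of 34 was higher and 4 lower in standard serum, beside the same 6.52% and 4.03% and 6.47% and 6.06% of all genes. In low serum 8 genes of this list in MDA-MB-436 and 7 in MDA-MB-231 were higher at an unadjusted p under 0.05 in edgeR, and 0 passed with DESeq2's adjusted p and the same fold. CD82, a tetraspanin, fell by 1.87 and by 2.92, FERMT3, a kindlin of blood cells that activates integrins, by 1.48 and by 1.98, SRC, a kinase of adhesion sites, by 1.11 and by 1.16, and TNS1, a tensin of fibrillar adhesions, by 1.61 and by 1.65. In MDA-MB-231, 0 were higher and 2 lower in low serum, beside 3.5% and 2.4% of all genes, and 1 higher and 4 lower in standard serum, beside 4.96% and 2.72%. KANK1, which caps adhesion sites, fell by 1.36 and by 1.35, and TNS1 by 2.31 and by 2.04. The medians were -0.31 and -0.30 in MDA-MB-231 and -0.19 and -0.32 in MDA-MB-436. TNS1 was the 1 gene of this list named here that fell past both thresholds in all 4 comparisons.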

How the data were processed

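Bulk RNA-Seq libraries, 2 biological replicates in each of 8 groups, were taken as the authors deposited them: whole read counts and TPM per gene, made with STAR in its gene quantification mode on hg19 and Gencode v19 per the study's methods. The submitters' notes give STAR 2.6.1a, and the methods name another patch version. How the deposited TPM were calculated and whether counting used strand was not given in the sources used here. Samples were grouped by their labels. Gene symbols, protein-coding status, GRCh37 positions and nearest genes came from a later Gencode release placed on GRCh37. It matched 55538 of the 57820 genes listed. Each serum condition was tested separately in edgeR 4.0.16 (R 4.3.3) on the deposited counts, with TMM scaling, 4 groups and the robust quasi-likelihood test, over the protein-coding genes whose 8 libraries together held 10 counts or more, with Benjamini-Hochberg adjustment. SE is the size of the log2 fold change over the root of F. CPM are counts scaled to the library total. With 2 replicates, p-values measure the spread between cultures of 1 sorted population. Where the libraries of a group had 3 counts or fewer, the CPM ratio with its exact 95% conditional binomial interval is given in place of a lower bound, and it covers counting error only. Members past both thresholds in at least 1 comparison of sublines are given in full and the others by range and count, and partner genes are named if past both thresholds, at most 4 per list by adjusted p. The members and lists were chosen with earlier results of these data known. Some genes are not reported here and were left out of the members and marker lists and their counts, while the fits used all genes. The tests were tested on simulated data. Alternatives were DESeq2 1.42.0, its size factors, other filters, all biotypes, limma 3.58.1 on log2(TPM + 1), the replicate number as a block, subtraction of the median of the 50 nearest genes, the adjusted p alone, and each library left out.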

Additional observations from a re-analysis of the deposited data

Results flagged for a closer look

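The change between 7TGP-POS and 7TGP-NEG differed between the cell lines for the following members, each past both thresholds in the test of the difference itself, given as MDA-MB-231 minus MDA-MB-436 on the log2 scale. In low serum the integrin differences were -3.44 for ITGA11, -1.99 for ITGA2B, -1.40 for ITGA6, -3.63 for ITGA8, -1.46 for ITGA9, -2.18 for ITGB3, -1.46 for ITGB4 and -1.60 for ITGB6. The laminin differences were 1.65 for LAMA1, -4.28 for LAMA4, -1.12 for LAMA5, -1.27 for LAMB1, -1.52 for LAMB2 and 1.25 for LAMB3. In standard serum the differences were -1.42 for ITGA6, -2.16 for ITGA9, 2.22 for ITGAM, 5.19 for ITGAX, -3.70 for ITGB3, 2.06 for LAMA1, 1.30 for LAMA2, -4.22 for LAMA4, -2.85 for LAMB1 and 1.55 for LAMB3. Those of ITGA8 and ITGA9 rest on at most 11 counts in each MDA-MB-231 library, and that of ITGAM in standard serum on 2 to 5. Of the alternatives other than limma, ITGA8 was lost under 5, ITGA9 under 12 in each condition and ITGAM under 6. In low serum LAMA5 was lost under 3 of them, ITGB6 under 2 and LAMB2 under 1, and in standard serum LAMA2 under 1. DESeq2 was among those under which ITGB6 and LAMA2 were lost (adjusted p = 0.083 and 0.070). ITGA11 (1 and 2) and ITGA8 (2 and 0) had few counts in MDA-MB-436 7TGP-NEG in low serum, as did ITGAX (1 and 1) in MDA-MB-231 7TGP-NEG in standard serum, so the sizes of these differences depend on the prior count of the fit and are no bound.

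Between the 7TGP-NEG sublines, ITGB8 was higher in MDA-MB-231 in low serum (1.05) and lower there in standard serum (-1.13). This difference between serum conditions was not tested, since library preparation differed with serum.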

How the results depend on the processing

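Of 113 calls of single members, 70 held under every alternative, 88 under every alternative but limma on log2(TPM + 1), and 0 changed direction. With the adjusted p alone, 17 members passed in MDA-MB-231 and 30 in MDA-MB-436 in low serum, 23 differed between the lines in low serum, 18 and 25 passed in standard serum, and 14 differed between the lines there. With limma on log2(TPM + 1), 7 passed in MDA-MB-436 in low serum, and 3 and 6 in MDA-MB-231 and MDA-MB-436 in standard serum. Leaving out 1 library gave 4 to 6 (low serum) and 5 to 6 (standard serum) calls in MDA-MB-231, 13 to 14 and 11 to 13 in MDA-MB-436, 26 to 28 and 24 to 26 between the 7TGP-NEG sublines, and 12 to 13 and 8 to 10 for the difference between lines, in low and standard serum. With the replicate number as a block the counts were 5, 14, 26 and 13 (low serum) and 6, 12, 26 and 9 (standard serum), for MDA-MB-231, MDA-MB-436, the 7TGP-NEG sublines and the difference between lines. For limma, the left-out libraries and the block, the share of all genes passing was not counted. These member counts can therefore not be set beside such a share. Same-numbered 7TGP-POS and 7TGP-NEG libraries had deviations correlated at -0.00049 and -0.12 (low serum) and at 0.23 and 0.16 (standard serum). The main fits did not treat the numbers as pairing. The values in standard serum were positive, and an effect shared by same-numbered libraries was not tested there beyond the block counts above. The crossed block in MDA-MB-436 in low serum, chosen after seeing the data, also gave 14. A filter of 10 counts in 2 libraries leaves ITGA8 without a value. Members with few counts, such as ITGA8, ITGB6, ITGB7 and LAMB4, are limited by depth.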
